A study of Mus musculus with 2 samples.

Results

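The homeobox is a coding stretch for a homeodomain, a DNA-binding fold carried by many transcription factors that place tissues along the embryonic axes. This account covers 43 homeobox genes outside the Hox clusters, of 43346 Ensembl genes in the tables, measured in the stomach of the mouse embryo. The genes were taken from a fixed list of TALE, Dlx and Msx, Six4 and Six5, paired-like, LIM, teashirt, zinc-finger homeobox, cut and other homeobox genes, and all 43 were found by gene identifier. No expression value entered the rule for the list, but earlier results of these data were known when it was chosen.

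Total RNA came from whole stomachs of B6NCrl embryos at embryonic day 15.5, with both sexes pooled. The series holds 1 group and no treated or mutant animals, in 2 libraries that the labels number as biological replicates. Replicate 1 was a pool of 78 embryos and replicate 2 a pool of 62 embryos, and each library was made from 10 ng of RNA longer than 200 nucleotides. The libraries held 43209506 and 44257493 expected counts on genes in replicates 1 and 2. A whole stomach mixes epithelium, mesenchyme, muscle, nerve and vessels, so a gene active in few cells can have a low level in these libraries.

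Homeodomain proteins grip DNA with a recognition helix, and the amino acid at residue 50 of the domain is known to steer which bases they prefer. TALE proteins carry an enlarged homeodomain, and among them Meis and Pbx proteins bind DNA beside Hox proteins, while Tgif proteins act mainly as repressors in transforming growth factor beta and retinoid signalling. In the gut wall, homeobox genes of the mesenchyme are known for directing regional identity of the overlying epithelium.

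The bases below code the end of the recognition helix and the 7 codons before its tryptophan, read for each gene from the coding transcript with this stretch that was most abundant in replicate 1, in GENCODE M21. They are shown because the later results ask which transcripts of a gene carry this stretch. Each runs 5′ to 3′ for 39 bases, with the codon of residue 50 in capitals.
Meis1: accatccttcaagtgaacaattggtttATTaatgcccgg
Tgif1: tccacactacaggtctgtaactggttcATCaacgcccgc
Pbx3: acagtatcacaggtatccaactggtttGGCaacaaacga
Irx2: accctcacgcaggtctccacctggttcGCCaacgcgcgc
Irx3: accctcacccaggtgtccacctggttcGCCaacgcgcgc
Irx5: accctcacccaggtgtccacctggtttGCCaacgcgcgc
Dlx1: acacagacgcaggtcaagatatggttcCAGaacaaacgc
Six5: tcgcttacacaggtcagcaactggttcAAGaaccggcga
Pitx1: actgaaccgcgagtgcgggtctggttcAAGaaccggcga
Prrx1: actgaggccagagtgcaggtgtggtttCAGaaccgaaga
Lhx1: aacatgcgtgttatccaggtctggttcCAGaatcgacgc
Cux1: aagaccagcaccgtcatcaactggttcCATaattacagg

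The stretch was located by translating each coding sequence and looking for tryptophan, phenylalanine or isoleucine, any residue, asparagine, any residue and arginine in a row. Of the members, 39 held this motif in at least 1 protein-coding transcript, against 239 (1.1%) of the 21428 protein-coding genes with a coding sequence. The 4 members without it were the 3 Tshz genes, whose homeodomain is atypical, and Onecut1. The codon of residue 50 was CAG in 20 members that include all Dlx, Prrx and Lhx genes, AAG in Six4, Six5 and Pitx1, and GCC in all 6 Irx genes. It was GGC or GGT in the Pbx genes and ATT or ATC in the Meis and Tgif genes, so the TALE and paired-like classes were each split. Within families the windows differed by 0 to 11 of 39 bases. The Irx pairs differed by 0 (Irx3 and Irx6) to 5 bases, Meis1 and Meis3 by 3, Tgif1 and Tgif2 by 9, Zfhx3 and Zfhx4 by 10, and both Prrx1 and Prrx2 and Lhx1 and Lhx2 by 11.

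Levels were compared as TPM, the usual transcript abundance unit scaled by effective length and library, and detection meant at least 1 TPM in each library. By this rule 34 of 43 members (79.1%) were detected, beside 64.5% of the 21474 protein-coding genes. Of the members, 14 reached 10 TPM in both libraries and 9 stayed below 1 TPM in both. Their summed level was 655 TPM in replicate 1 and 662 TPM in replicate 2. In bulk RNA a low level can come from few cells or from little RNA per cell, and the libraries cannot tell these apart.

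**Figure D1:**
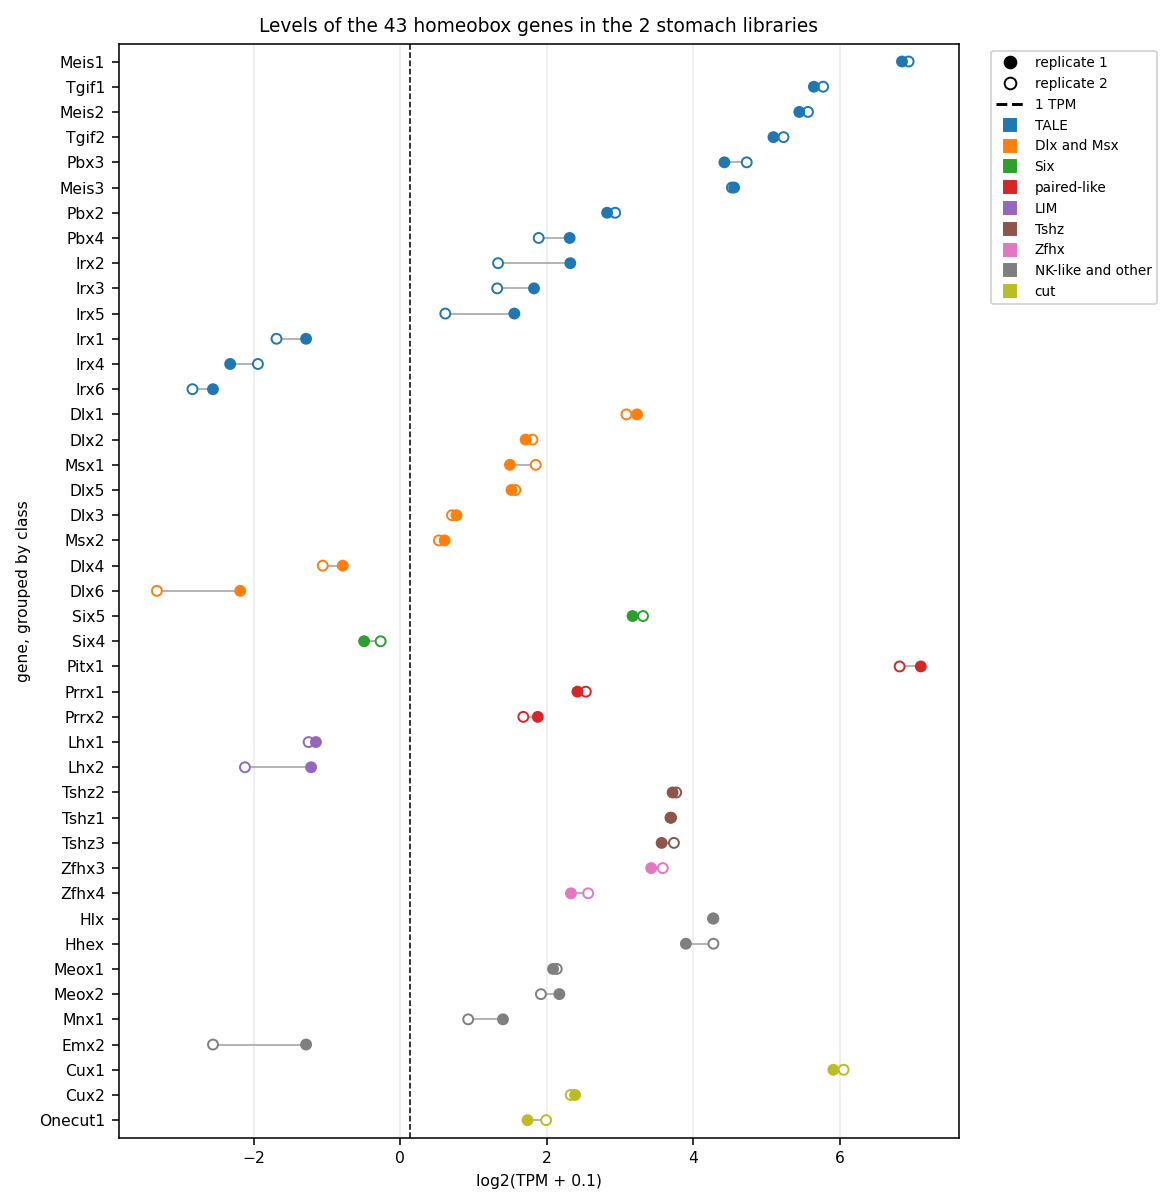
Level of each of the 43 homeobox genes as log2(TPM + 0.1), by class and by falling mean level, with replicate 1 as filled and replicate 2 as open circles and 1 TPM as a dashed line. Pitx1 and Meis1 lie farthest right, Lhx1 and Lhx2 lie left of the line, and Irx1, Irx4 and Irx6 lie apart from Irx2, Irx3 and Irx5.

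Pitx1 and Meis1 led all members. Pitx1, a paired-like factor known for hindlimb and pituitary development, had 137 and 112 TPM in replicates 1 and 2, from 9001.74 and 7357.43 expected counts. Meis1 had 115 and 122 TPM, from 9543.63 and 9951.73 expected counts. The ranges of Pitx1 and Meis1 overlapped, so their order was not resolved, and both lay near the top of protein-coding genes, at percentiles 94.5 and 94.2. Below them came Cux1, Tgif1, Meis2 and Tgif2, each of which was separated from the next gene in both libraries. From Onecut1 downward to Irx3, at mean levels of 3.55 to 2.92 TPM, no gene was separated from its neighbour.

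Among the TALE genes, 11 of 14 were detected. The 3 Meis genes were all detected, and by whole-gene TPM their proportions were nearly the same in both libraries. Meis1 took 63.4% ± 0.26 of their summed TPM, Meis2 24.2% ± 0.43 and Meis3 12.4% ± 0.69 (SD, n = 2). Meis2, a Hox cofactor like Meis1, had 43.4 and 47.2 TPM in replicates 1 and 2. Meis3 had 23.4 and 22.9 TPM. By whole-gene TPM the log2 ratio of Meis2 to Meis1 was -1.39 ± 0.02 and that of Meis3 to Meis1 -2.35 ± 0.09 (SD, n = 2). The spread between libraries was thus small beside the gap between the paralogs. On coding transcripts with the motif, Meis1 had 50.4 and 46.6 TPM and Meis2 33.1 and 35.7 TPM in replicates 1 and 2.

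The Pbx genes code partners that bind DNA together with Meis and Hox proteins. Pbx3 was the highest of the 3 listed here, with 21.3 and 26.4 TPM in replicates 1 and 2, from 1571 and 1942 expected counts. Pbx2 had 6.97 and 7.53 TPM, and Pbx4, known mainly from testis, had 4.86 and 3.6 TPM. The Pbx4 level rested on 88 and 62 counts, and transcripts that code its homeodomain motif held 0.14 and 0.05 TPM of it. The remainder of Pbx4 lay on short fragments, on transcripts annotated for nonsense-mediated decay and on retained introns.

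Tgif1 and Tgif2 were both abundant. Tgif1, a corepressor of Smad and retinoid responses, had 49.9 and 54.5 TPM in replicates 1 and 2, from 2185 and 2453 expected counts. Tgif2, its close relative, had 34 and 37.4 TPM. Their log2 ratio, Tgif2 to Tgif1, was -0.55 ± 0.01 (SD, n = 2), the tightest of the 19 paralog ratios computed. Tgif2 overlaps the gene 5430405H02Rik on the other strand over 2171 exonic bases, and that gene had 581.46 and 606.09 counts. Strand was not given in the sources used here, so reads in the overlap cannot be assigned to either gene with certainty.

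The Iroquois genes pattern organs along their axes and lie in clusters of 3 on chromosomes 13 (Irx1, Irx2 and Irx4) and 8 (Irx3, Irx5 and Irx6). Irx2, Irx3 and Irx5 were detected and Irx1, Irx4 and Irx6 were not, so each cluster held detected and undetected genes. Irx2 had 4.89 and 2.42 TPM in replicates 1 and 2, from 258 and 132 expected counts. Irx3 had 3.44 and 2.4 TPM, from 264.96 and 186 counts. Irx5 had 2.84 and 1.43 TPM, from 202 and 102 counts. All 3 were higher in replicate 1, and they made up 39.2% ± 4, 32.8% ± 4.6 and 22.9% ± 2.1 of the family's TPM (SD, n = 2). Irx1 had 0.31 and 0.21 TPM, Irx4 0.1 and 0.16 TPM and Irx6 0.07 and 0.04 TPM, the last from 7 and 3 counts.

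The Dlx and Msx genes code homeodomain factors that act downstream of bone morphogenetic proteins in limbs, jaw and teeth. Of 8 such genes 6 were detected, at levels far below those of Meis and Tgif. Dlx1 led with 9.28 and 8.39 TPM in replicates 1 and 2, from 582.39 and 645.99 counts. Dlx2 had 3.17 and 3.39 TPM and Dlx5 2.76 and 2.87 TPM, each with its libraries close together. Dlx3, which acts in skin and placenta, had 1.6 and 1.53 TPM. Dlx4 and Dlx6 fell below the detection level, with 0.48 and 0.38 TPM for Dlx4.

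Dlx genes lie in pairs that face each other, and each pair was uneven. Dlx1 and Dlx2 lie 9.4 kb apart on chromosome 2, Dlx6 and Dlx5 lie 9.2 kb apart on chromosome 6, and Dlx3 and Dlx4 lie 15.2 kb apart on chromosome 11. The log2 ratio was -1.40 ± 0.17 for Dlx2 to Dlx1, -4.30 ± 0.84 for Dlx6 to Dlx5 and -1.66 ± 0.15 for Dlx4 to Dlx3 (log2(TPM + 0.1), SD, n = 2). Dlx6 had 5 counts in replicate 1 and 0 in replicate 2, where a count of 0 allows up to 3 counts, so its ratio is only a rough value. With a pseudocount of 1 TPM the ratio was -1.85 for Dlx6 to Dlx5 and -0.84 for Dlx4 to Dlx3, and with posterior mean TPM that of Dlx6 to Dlx5 was -2.95. The antisense gene Dlx6os1, which spans Dlx6, had 49.8 and 72.44 counts in replicates 1 and 2.

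Msx1, a target of bone morphogenetic protein signalling, had 2.72 and 3.5 TPM in replicates 1 and 2, from 154 and 199 counts. Msx2 had 1.42 and 1.34 TPM. Msx1 was above Msx2 in both libraries, with a log2 ratio of Msx2 to Msx1 of -1.11 ± 0.30 (SD, n = 2). All 7 genes listed as bone morphogenetic protein ligands or early targets were detected. Id2 and Id3, inhibitors of helix-loop-helix factors and early targets of this signalling, were the highest of them. Id2 had 304 and 266 TPM and Id3 240 and 224 TPM in replicates 1 and 2.

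Six5, which lies beside the myotonic dystrophy kinase gene in humans, had 8.89 and 9.83 TPM in replicates 1 and 2, from 798 and 886 counts. Six4, known from muscle precursors, had 0.61 and 0.73 TPM, from 119 and 145 counts. Six4 lay below the detection level in both libraries with over 100 counts, since TPM divides by length and its transcripts are 6402 and 6817 bases long. The log2 ratio of Six4 to Six5 was -3.62 ± 0.06 (SD, n = 2). Proteins of this family need Eya coactivators, and 5 of 6 Eya and Dach genes were detected. Eya3 had 20.1 and 21.6 TPM and Eya2 8.52 and 7.04 TPM in replicates 1 and 2, and none of the 6 was called different between the libraries.

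Besides Pitx1, the paired-like class held Prrx1 and Prrx2, factors of limb and facial mesenchyme. Prrx1 had 5.24 and 5.68 TPM in replicates 1 and 2, from 711 and 727 counts. Prrx2 had 3.57 and 3.1 TPM, from 133 and 104 counts. Both were detected at a small share of the Pitx1 level, which alone made 93.4% ± 0.86 of the TPM of these 3 genes (SD, n = 2).

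Neither LIM-homeobox member was detected. Lhx1, which acts in kidney and head organizer, had 0.35 and 0.32 TPM in replicates 1 and 2, from 34 and 36 counts. Lhx2, which acts in forebrain, eye and liver stellate cells, had 0.33 and 0.13 TPM, from 17 and 11 counts. All 9 genes for Ldb, Ssbp and Lmo proteins that were set beside the LIM members were detected as RNA. Ssbp2 had 88.3 and 93.6 TPM and Ssbp3 75.5 and 80.2 TPM in replicates 1 and 2. Markers of the neural tube and brain, where both Lhx genes are also used, summed to 0.12 and 0.04 TPM.

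The 3 Tshz genes, teashirt zinc-finger homologues of which Tshz3 is known from ureteral smooth muscle, lay close together. Tshz1 had 12.8 and 12.9 TPM in replicates 1 and 2. Tshz2 had 13 and 13.5 TPM. Tshz3 had 11.7 and 13.2 TPM. They took 33.3% ± 1.1, 34.4% ± 0.42 and 32.3% ± 1.5 of the summed TPM of the 3 genes (SD, n = 2), and Tshz3 was not separated from Tshz1. The equal Tshz3 level rests on 61 and 77 counts of a 431-base processed transcript, which held 50.7% and 56.68% of its level, while 893 and 886 counts lay on the 5098-base coding transcript at 5.79 and 5.72 TPM.

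Zfhx3 and Zfhx4 code very large proteins with several zinc fingers and homeodomains. Each had 3 matches to the homeodomain motif in its coding sequence. Zfhx3 had 10.6 and 11.9 TPM in replicates 1 and 2, from 4964 and 5410 counts. Zfhx4 had 4.92 and 5.81 TPM, from 1609 and 1773 counts. Their long transcripts gave many counts for a modest TPM, and their log2 ratio, Zfhx4 to Zfhx3, was -1.06 ± 0.05 (SD, n = 2).

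Hlx and Hhex were the highest of the 6 NK-like and other members. Hlx, a mesenchymal gene needed for growth of gut and liver, had 19.2 and 19.1 TPM in replicates 1 and 2, from 1139 and 1029 counts. Hhex, a gene of foregut endoderm and vessels, had 14.8 and 19.2 TPM, from 758 and 916 counts. The 2 genes overlapped in level through replicate 2. Meox1 and Meox2, somite and muscle genes, had 4.14 and 4.29 TPM and 4.4 and 3.68 TPM. Mnx1, which acts in motor neurons and pancreas, had 2.54 and 1.8 TPM. Emx2, a gene of forebrain and urogenital tract, was not detected, at 0.31 and 0.07 TPM.

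The cut class was led by Cux1, a widely expressed regulator, with 60 and 66.1 TPM in replicates 1 and 2, from 5700.11 and 6327.63 counts. Cux2, known from cortical neurons, had 5.12 and 4.91 TPM. Onecut1, a regulator of liver, biliary and pancreatic development, had 3.23 and 3.87 TPM, from 317.95 and 452 counts. The log2 ratio of Cux2 to Cux1 by whole-gene TPM was -3.62 ± 0.14 (SD, n = 2). On coding transcripts with the homeodomain motif, Cux1 had 6.95 and 9.35 TPM in replicates 1 and 2 and Cux2 3.46 and 3.73 TPM. For scale, Barx1, the homeobox gene that marks stomach mesenchyme, had 142 and 166 TPM and Nkx2-3, a gene of gut mesenchyme and spleen, 25.7 and 21.4 TPM, and all 9 gut homeobox genes set beside the members were detected.

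A gene's TPM does not say that its product carries a homeodomain. The share of each member's TPM on protein-coding transcripts with the motif was computed for the 29 members that held the motif and had at least 100 expected counts in each library. The median share was 92.1% in replicate 1 and 89.3% in replicate 2, and 13 members had at least 90% in both. Among these were Irx3, Irx5, Dlx3, Six4, Six5, Hhex, Meox1, Meox2 and Mnx1, whose annotated transcripts all hold the motif. Their share of 100% was fixed by the annotation and also enters the median. Cux1, Dlx1 and Meis1 lay under 50% in both libraries.

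**Figure D2:**
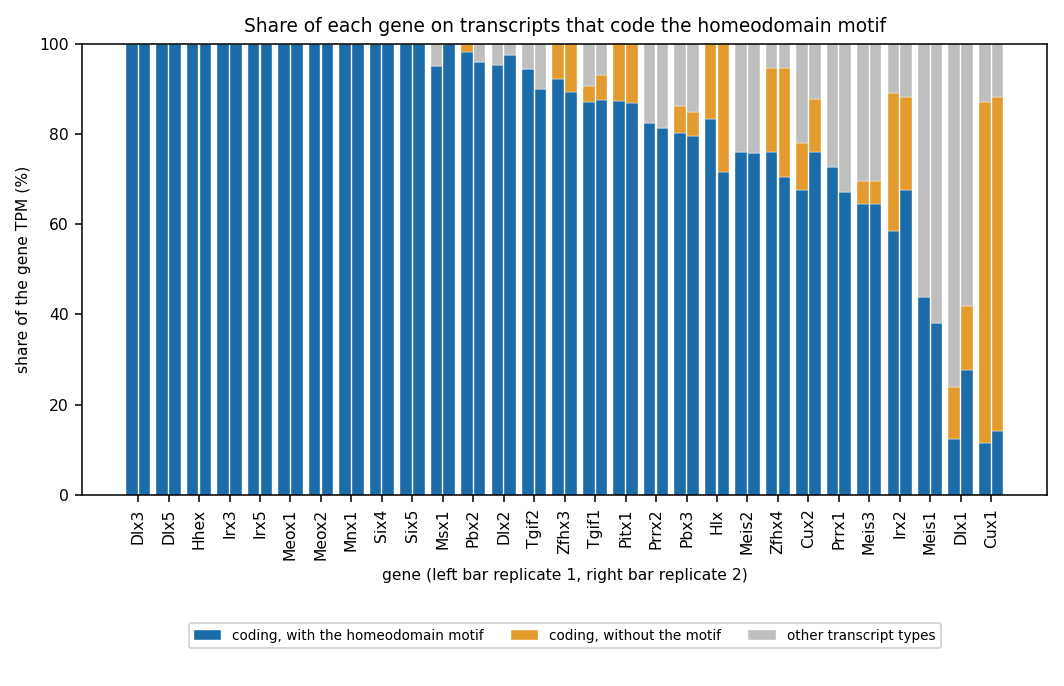
Share of each gene's TPM (%) on coding transcripts with the homeodomain motif (blue), coding transcripts without it (orange) and other transcript types (grey), with replicate 1 as the left and replicate 2 as the right bar, for 29 genes. Cux1 at the right end is mostly orange, and Meis1 and Dlx1 are mostly grey, in both replicates.

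Cux1 was the clearest case. Coding transcripts without the motif held 75.4% and 74.1% of its TPM in replicates 1 and 2, and transcripts with the motif 11.6% and 14.1%, or 6.95 and 9.35 TPM. The leading transcript, 2831 bases long, had 51.52% and 46.47% of the TPM, with 2028 coding bases and no match to the motif. The sequence printed above came from Cux1-201, whose coding sequence runs for 4278 bases. The locus is known to code, besides the transcription factor, a Golgi membrane protein that shares its first exons and lacks the homeodomain. Since transcripts with the motif are long, they held a larger share of expected counts, 29.3% and 31.8%.

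Meis1 transcripts were split in another way. All 4 protein-coding transcripts held the motif, and together they took 43.9% and 38.1% of the TPM in replicates 1 and 2, or 50.4 and 46.6 TPM. The other 56.1% and 61.9% lay on transcripts annotated as processed, retained-intron or nonsense-mediated decay. The largest of these was Meis1-203, a 2008-base processed transcript with 34.1% and 40.89% of the TPM, beside 34.45% and 29.35% for the coding Meis1-201. Which of these 2 transcripts led therefore differed between the libraries. Even on coding transcripts alone Meis1 stayed above Meis2, whose coding transcripts with the motif summed to 33.1 and 35.7 TPM.

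Dlx1 had 12.5% and 27.8% of its TPM on the motif-coding transcript in replicates 1 and 2, or 1.16 and 2.33 TPM. Retained-intron transcripts led instead, Dlx1-203 with 35.61% and 33.75% and Dlx1-206 with 25.33% and 24.41%. Dlx2, beside it on the chromosome, had 95.3% and 97.6% of its TPM on the motif-coding transcript, or 3.02 and 3.31 TPM. By transcripts with the motif, Dlx1 thus lay below Dlx2 in both libraries, whereas by whole-gene TPM it lay above. Dlx1as, an antisense gene, overlaps 335 exonic bases of Dlx1 and had 17.61 and 26.01 counts.

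Counting only motif-coding transcripts, 29 of the 39 members with the motif reached 1 TPM in both libraries, against 30 of 39 by whole-gene TPM. The gene that dropped out was Pbx4. Pitx1 kept 120 and 97.4 TPM on its motif-coding transcript in replicates 1 and 2, which made it the highest member by this measure in both libraries. For some genes the annotation allows a single product: Six5, Dlx3, Irx5, Meox1 and Meox2 each had 1 annotated transcript, which held the motif. Hhex had 2 coding transcripts with the motif. The shorter, Hhex-202, had a share of 11.76% in replicate 1 and 45.28% in replicate 2. The split of Hhex between these 2 transcripts thus differed between the libraries.

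The 2 libraries were then compared gene by gene, as a check of how far each level depends on the pool. Each ratio is log2 of replicate 1 over replicate 2, and a gene was called at an adjusted p below 0.05 in a two-sided exact binomial test of both libraries' counts with an absolute log2 ratio of at least 1. This test covers counting error between these 2 libraries and no spread between animals. Over 20918 tested genes 5.91% were called higher and 0.808% lower in replicate 1. Of the 43 members 42 could be tested, since Dlx6 had under 10 counts, and 3 were called, all higher in replicate 1. All 43 members are protein-coding, and of protein-coding genes 2.42% were called higher and 0.654% lower. Of the 33 members with at least 100 counts in both libraries 2 were called higher, beside 1.54% of all such genes and 0.88% of the protein-coding ones among them. The shares called lower were 0.121% and 0.128%.

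The called members were Irx2, Irx5 and Emx2. The log2 ratio of Irx2 was 1.01 (95% counting interval 0.7 to 1.32, adjusted p = 3.37e-10 by the exact binomial test). Irx2 transcripts with the motif held 2.86 and 1.63 TPM in replicates 1 and 2, and were not tested apart. The log2 ratio of Irx5 was 1.02 (0.68 to 1.39, adjusted p = 2.26e-08). Irx3 went the same way at 0.55 (0.28 to 0.83, adjusted p = 0.000375) and stayed under the fold limit. Emx2 was called on 15.11 counts in replicate 1 and 4 in replicate 2, with a log2 ratio of 1.83 and an interval of 0.3 to 4. Emx2-202, a coding transcript without the motif, had 0.29 and 0.05 TPM in replicates 1 and 2. Emx2-201, which holds the motif, had 0.02 TPM in both. Emx2os, the antisense gene over 264 exonic bases of Emx2, had 26.89 and 5 counts in the same direction.

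A dispersion that allows for spread between libraries was estimated over all genes from these same 2 libraries, so it contains the difference under test. With it none of these calls passed, which cannot decide whether they would hold in other pools. edgeR's exact test with the common dispersion gave an adjusted p of 0.385 for Irx2, 0.384 for Irx5 and 0.657 for Emx2. By that test 0 of 42 members and 687 of 20918 tested genes were called. An unadjusted p below 0.05 in the same test was found for 3 members and 1442 genes. No member, Irx genes included, lay outside the central 95% of ratios of genes with a like count, which ran from -0.66 to 2.42 for mean counts of 100 to 200. The Irx2, Irx3 and Irx5 differences were thus larger than counting error and inside the band of all gene types. No band was computed for protein-coding genes alone. Of protein-coding genes with at least 100 counts in both libraries, 0.88% were called higher, as Irx2 and Irx5 were.

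**Figure D3:**
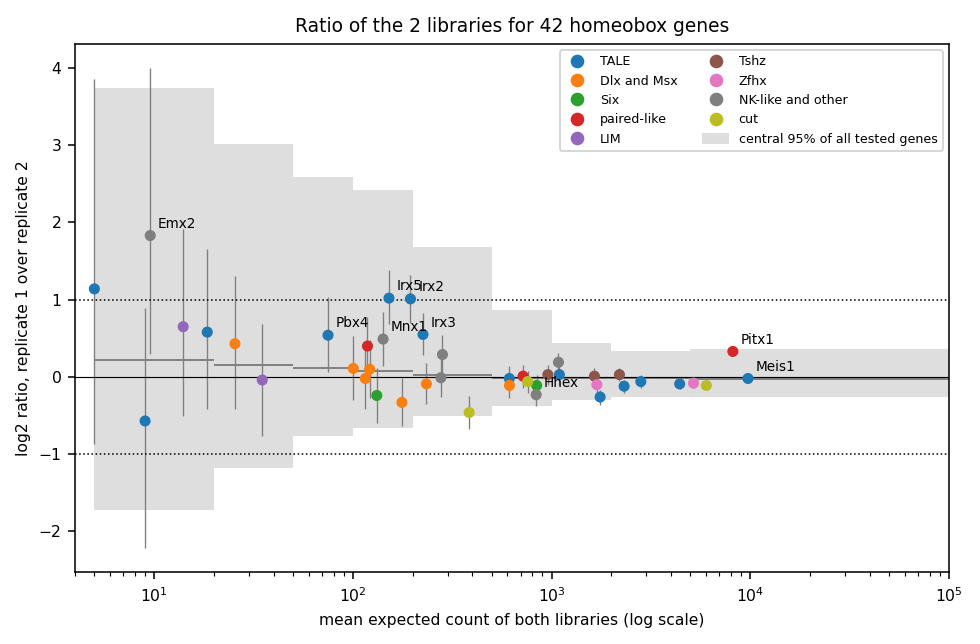
Log2 ratio of replicate 1 over replicate 2 against the mean expected count for 42 homeobox genes, with bars for the 95% counting interval and grey bands for the central 95% of all tested genes in each count range. The called Irx2, Irx5 and Emx2 stand above the dotted line at 1, inside the grey band. The uncalled Irx6 does so too, on 7 and 3 counts. The members with over 1000 counts lie within 0.5 of 0.

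The abundant members differed little. Meis1 had a log2 ratio of -0.02 and Pitx1, the largest shift among members with over 1000 counts, of 0.33 (0.29 to 0.38). The ratio of Pitx1 had an adjusted p of 2.35e-47 by the binomial test and of 1 by edgeR's exact test. Pbx3 lay at -0.26 (-0.36 to -0.17) and Onecut1 at -0.46 (-0.68 to -0.25), both lower in replicate 1. Over all 42 tested members the median ratio was 0 and 21 lay on each side of it. An adjusted p below 0.05 in the binomial test, without regard to size, was found for 14 of 42 tested members, beside 6700 of 20918 tested genes.

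Marker lists for tissues that a stomach pool can hold moved between the libraries too. Liver markers summed to 2277 TPM in replicate 1 and 1106 TPM in replicate 2, with 8 of 8 higher in replicate 1 and 6 of 8 called. Squamous forestomach keratinocyte markers summed to 2800 and 1485 TPM, with 7 of 7 higher in replicate 1 and 4 called. Exocrine pancreas markers ran the other way, with 6166 and 8346 TPM and 6 of 6 lower in replicate 1. Striated muscle markers summed to 75 and 135 TPM, with 4 of 4 lower in replicate 1. Markers of stomach mesenchyme and smooth muscle had median ratios of -0.03 and 0.02. The Irx family had a median ratio of 0.79 over its 6 genes, with 5 of 6 higher in replicate 1 and Irx4 lower at -0.57. Of the 6, 3 were not detected. Liver and forestomach markers lay on that side, and so did those of mesothelium (median 0.29, 5 of 5 higher). Kidney and adrenal markers had a median of 0.34, with 3 of 4 higher, 2 of 4 detected and none called. Among them Pax2 lay at -1.72, from 2 and 8 counts in replicates 1 and 2. Onecut1 at -0.46 and Hhex at -0.23 lay on the other side from liver markers. Exocrine pancreas markers, with a median of -0.48, lay on that other side too. Mnx1, named above for motor neurons and pancreas, lay at 0.49, on the side of liver markers. The part of these tissues in the members' ratios was not tested.

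**Figure D4:**
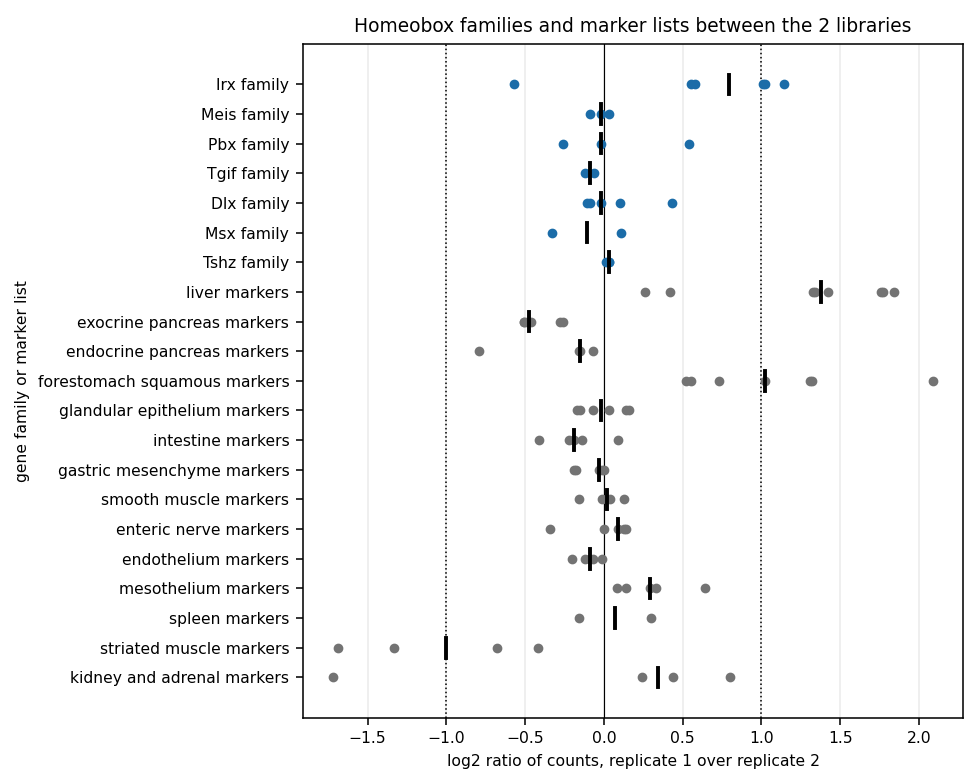
Log2 ratio of counts, replicate 1 over replicate 2, for each gene (dots) and the median (black bar) of 7 homeobox families in blue and of marker lists in grey, with genes under 10 summed counts left out. The Irx median of 0.79 lies to the right, as do the medians of the liver, forestomach, mesothelium and kidney and adrenal lists. The Meis, Pbx, Tgif, Dlx, Msx and Tshz medians lie near 0.

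Overlap with other genes touched many members. Of 43 members 20 overlap another gene of the tables, 12 share exonic bases with one, and 9 share exonic bases with a gene of the other strand. Besides Tgif2, Dlx1 and Emx2, the largest shared stretch was that of Tshz2 with Gm26883, at 5076 bases, and Gm26883 had 494.81 and 551.85 counts in replicates 1 and 2. Meis1 shares 896 exonic bases with the antisense gene Gm16140 and that gene had 82.43 and 59.16 counts. It also shares 1029 exonic bases with Gm37818 on its own strand, which had 145.94 and 122.11 counts. Pitx1 shares 108 exonic bases with Gm28760 on its own strand, which had 51.26 and 48.57 counts. For Meis1 and Pitx1 the neighbours' counts were small beside their own, while for Tshz2 and Tgif2 they were not.

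Promoter windows, 250 bases before to 50 bases after a gene's start, were held by the RefSeq table (GRCm38.p6, the mm10 build) for 31 of 43 members. Where a gene had several windows, only the first listed was used. Members had a median ratio of observed to expected CpG of 0.79, beside 0.6 for 16317 protein-coding genes. A ratio of at least 0.6 was found in 26 of 31 members (83.9%), beside 50.3% of protein-coding genes. Among detected genes the difference was smaller, with 21 of 26 members (80.8%) beside 69.2% of protein-coding genes and medians of 0.78 and 0.75. All 5 undetected members with a window, Six4, Lhx1, Lhx2, Irx4 and Emx2, were among them, with a median of 0.84, whereas undetected protein-coding genes had a median of 0.2. The letters TATAAA, read on both strands, occurred in 2 of 31 member windows (6.45%), those of Meis2 and Meox2, beside 12.64% of protein-coding genes. A further window of Cux2, left out because it was not the first listed, also held these letters. Among detected genes the shares were 7.69% of members and 7.35% of protein-coding genes.

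**Figure D5:**
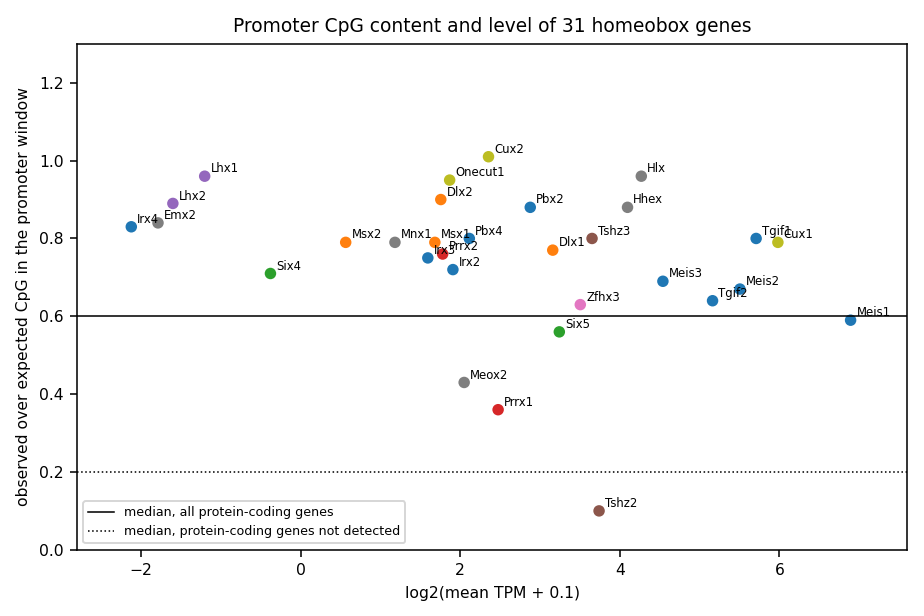
Ratio of observed to expected CpG in the 300-base promoter window against log2(mean TPM + 0.1) for 31 homeobox genes, coloured by class as in the plot of levels, with the median of all protein-coding genes (line) and of undetected ones (dotted). Undetected genes such as Lhx1, Lhx2 and Irx4 lie as high on the CpG axis as abundant genes, and Tshz2 at 0.1 is the lowest.

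The windows of Irx2 and Irx3 are shown because both genes were higher in replicate 1 and both belong to clusters with undetected members. CpG is in capitals, with 25 in Irx2 and 14 in Irx3, at observed to expected ratios of 0.72 and 0.75. The Irx2 window lies at chr13:72628570-72628869 on the plus strand and the Irx3 window at chr8:91801605-91801904 on the minus strand, both in GRCm38.p6 and printed 5′ to 3′ along the gene.
Irx2: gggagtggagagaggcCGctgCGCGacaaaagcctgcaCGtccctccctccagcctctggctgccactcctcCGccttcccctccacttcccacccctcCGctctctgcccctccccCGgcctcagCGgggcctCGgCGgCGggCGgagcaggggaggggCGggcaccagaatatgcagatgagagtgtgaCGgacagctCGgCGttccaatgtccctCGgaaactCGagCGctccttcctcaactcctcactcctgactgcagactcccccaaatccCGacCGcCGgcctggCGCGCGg
Irx3: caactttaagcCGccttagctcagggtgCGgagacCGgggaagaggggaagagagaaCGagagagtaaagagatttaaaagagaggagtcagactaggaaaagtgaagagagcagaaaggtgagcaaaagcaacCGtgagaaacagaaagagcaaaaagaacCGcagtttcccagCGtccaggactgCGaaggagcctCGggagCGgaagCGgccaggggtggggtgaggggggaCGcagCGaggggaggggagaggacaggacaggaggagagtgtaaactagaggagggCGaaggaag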

How the data were processed

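Total RNA of pooled embryonic stomachs was measured in 2 libraries of 1 group, and expected counts, TPM and FPKM per gene and transcript were deposited by the authors. Per the file headers, the deposited expected counts divide reads that match several features, the deposited TPM and FPKM values are scaled by effective length and library, and the deposited percent columns split the TPM of a gene over its transcripts. Per the text deposited by the authors beside the tables, reads were aligned to the mm10 transcriptome with annotation M4; aligner, program and strand are not given in the sources used here. Spike-ins took 4.01% and 6.51% of TPM in replicates 1 and 2 and entered neither library sizes nor tests.

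Symbols, types and exons came from GENCODE M21, matched by identifier without version for 42462 of 43346 genes (98.0%); of 190 member transcripts 185 had the same length in M21. For the tests, expected counts were rounded to integers. Library sizes used TMM (edgeR 4.0.16, R 4.3.3), the binomial test scipy 1.17.1, adjustment was by Benjamini-Hochberg over 20918 genes with at least 10 summed counts, and ratios used a prior count of 0.5. The common dispersion was 0.03885 from an intercept-only fit. The binomial test was checked on simulated counts that held counting error only, so this check does not cover spread between libraries. The alternatives were other detection limits, FPKM, posterior means, summed transcripts, DESeq2 1.42.0 size factors, library and spike-in totals, other count limits and each library left out; shares by expected counts, decay transcripts and whole counts were added with the data in view. All members are named, with full values for those that led their class or were called. The members and lists were chosen with earlier results of these data known. Intervals and floors cover counting error only.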

Additional observations from a re-analysis of the deposited data

How the results depend on the processing

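The number of detected members lay between 30 and 35 under all alternatives for the threshold and unit, against 34, and was 34 without either library. The 3 calls between libraries were kept with DESeq2 size factors, with spike-in totals relative to the median gene and with no count filter. With library totals 2 were kept, since Irx2 came to a log2 ratio of 1.00, just under the limit. Emx2 was not tested at 20 summed counts. edgeR's exact test called 0 members and 687 of all genes, against 1406, and 14 members and 6700 genes passed without a fold limit. With whole counts 2 members and 420 genes were called, from fewer genes tested.

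Spike-in totals moved the median of all tested genes, and that of the members, by 0.68 on the log2 scale. At that scale Irx2 had a ratio of 1.69 and Meis1 of 0.66. No member outside the calls changed sign with the scaling relative to the median gene. Of 19 paralog pairs, 10 differed at least 2-fold one way in both libraries, and 8 to 11 under the alternatives. Leaving out a library gave 10 to 11 pairs, 26 to 28 members with a leading transcript of at least 50% (26 with both) and 13 to 15 members with at least 90% on motif-coding transcripts (13 with both). By expected counts the last number was 19, and 2 members, not 3, stayed under 50%. With decay transcripts counted, Meis1 had 52.1% and 44.7% on transcripts with the motif in replicates 1 and 2. No paired analysis was possible because the series holds 1 group. Calls between the libraries could not be recomputed without a library. Depth limits Dlx6, Irx6, Irx4, Emx2 and Lhx2, which had under 20 counts in each library.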

Other observations

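Outside the comparisons above, 2 details of single transcripts stood out after their values were seen. Prrx2-202 was listed at 0 in replicate 1 and took 32.16% of the Prrx2 TPM in replicate 2, while Prrx2-201 had 82.34% and 49.27%. Mnx1-201 took 25.7% of the Mnx1 TPM in replicate 1 and was listed at 0 in replicate 2. Both genes had 104 to 164 counts in a library.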
